A study of Mus musculus with 12 samples.

Results

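Tslp and Il33, the genes of 2 epithelial cytokines, were followed across 12 Illumina bead arrays of mouse back skin at E18.5. All probes annotated to these symbols were taken, which gave 3 of the 25697 probes on the array, 2 for Tslp and 1 for Il33, and 2 of the 16593 genes that had a probe. The skin came from C57BL/6 mice in 4 groups of 3 arrays each. The type I knockout carried the type I keratin cluster deletion and was compared with wild type I, and the type II knockout carried the type II cluster deletion and was compared with wild type II. The series title links keratins to TSLP and to atopic disease, so the comparison asks how far loss of keratins changes this cytokine. Nothing in the labels states that the 3 arrays of a group came from separate embryos, and the p-values then cover only the scatter among these arrays, part of which may be technical. The RNA is from whole skin, in which a change in the number of cells of a type and a change in RNA per cell cannot be told apart.

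Thymic stromal lymphopoietin, the product of Tslp, is an interleukin-7-like cytokine that keratinocytes release when the barrier is disturbed. It binds a receptor made of the Crlf2 and Il7r chains, signals through JAK kinases and STAT5, and acts on dendritic cells, mast cells and innate lymphoid cells to favour type 2 immunity. IL-33 is an interleukin-1 family protein stored in the nucleus of barrier and endothelial cells and released on damage. It binds Il1rl1 with Il1rap, signals through MyD88 and TRAF6, and is trimmed to more active forms by proteases. High TSLP and IL-33 are both known from the skin of patients with atopic dermatitis.

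RefSeq gives Il33 a pair of start sites, and the window around each is shown. The array has a single Il33 probe, and whether it reads transcripts of the upstream start, the downstream start or both was not checked. Both windows lie on the plus strand of mouse chromosome 19 in GRCm38.p6, at chr19:29924863-29925162 and chr19:29945540-29945839. Each runs from 250 bases before the start site to 50 bases after it, and capitals mark TATAAA, the core letters of the TATA box motif.
Il33 upstream start: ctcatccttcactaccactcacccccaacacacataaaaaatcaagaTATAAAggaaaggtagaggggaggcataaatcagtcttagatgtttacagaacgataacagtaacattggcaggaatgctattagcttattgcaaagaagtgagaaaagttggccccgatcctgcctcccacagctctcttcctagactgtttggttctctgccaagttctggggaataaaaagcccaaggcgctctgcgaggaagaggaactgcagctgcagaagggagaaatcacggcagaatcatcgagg
Il33 downstream start: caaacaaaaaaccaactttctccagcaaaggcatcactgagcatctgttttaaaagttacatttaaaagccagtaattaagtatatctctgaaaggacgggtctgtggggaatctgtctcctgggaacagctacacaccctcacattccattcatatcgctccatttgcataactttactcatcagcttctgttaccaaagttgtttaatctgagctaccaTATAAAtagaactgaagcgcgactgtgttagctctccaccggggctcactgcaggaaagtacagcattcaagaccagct
The first base of TATAAA lay at -203 from the upstream start and at -29 from the downstream start. Counting both strands, TATAAA occurred in 13.6% of 32851 RefSeq promoter windows. Neither Il33 window held TGANTCA (AP-1), found in 7.81% of windows, or TGACNNNGC (the antioxidant response element core), found in 12.4%. TTCNNNGAA (a STAT pattern) occurred in 8.3% of all windows and GGGANNTTC (an NF-kB pattern) in 3.94%, and neither was in an Il33 window. Other spacings of these patterns were not searched, so such sites may be present. The matches are a description of these letters only.

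The labels were checked on the deleted genes. Krt14 was not detected on any type I knockout array and was at least 583-fold lower than in wild type I, and Krt5 was not detected on any type II knockout array and was at least 50.4-fold lower than in wild type II. With no background correction the log2 changes were -7.50 for Krt14 and -3.96 for Krt5. Between 13272 and 13693 probes were detected per array, with median raw signals of 107 to 150. Arrays of 1 group correlated at 0.962 to 0.991 and arrays of different groups at 0.884 to 0.984, and 0 pairs of arrays were identical. The number of arrays limits the precision.

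Tslp was close to background in wild-type skin and bright in both knockouts. Its raw signals were 164, 151 and 149 in wild type I and 2059, 3897 and 4613 in the type I knockout. They were 112, 140 and 123 in wild type II and 1753, 2718 and 3108 in the type II knockout. The dimmest knockout array stood 12.5-fold above the brightest wild-type array of its own series in each comparison, so the groups did not overlap. The detection p-value, which tells a probe from background, was 0.00251 to 0.00501 on the wild type I arrays and 0.00251 to 0.0401 on the wild type II arrays, so the wild-type level was detected but dim. These values are from the Tslp probe detected on all 12 arrays. The other Tslp probe was detected on 0 of 12 arrays, with raw signals of 89.9 to 121 and detection p-values of 0.504 to 0.986, and was not tested. The Tslp change therefore rests on 1 probe.

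Il33 gave the same picture with 1 probe, detected on all 12 arrays. Its raw signals were 177, 161 and 154 in wild type I and 4043, 5264 and 7950 in the type I knockout. They were 133, 160 and 143 in wild type II and 2019, 2187 and 2915 in the type II knockout. The dimmest knockout array stood 22.8-fold above the brightest wild-type array in the type I series and 12.7-fold in the type II series. Il33 groups did not overlap in either series.

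**Figure D1:**
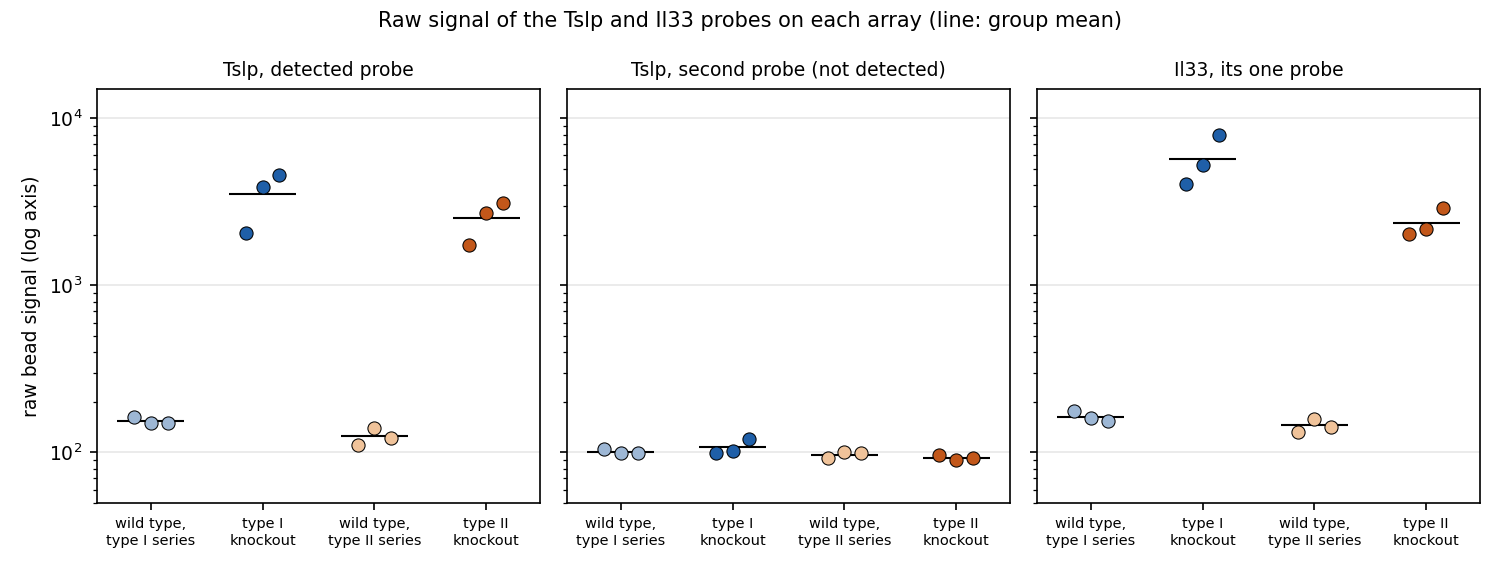
Raw probe signal on a log axis (vertical) of the 2 Tslp probes and the Il33 probe on each of the 3 arrays of wild type I, type I knockout, wild type II and type II knockout; points are arrays and horizontal lines are group means. For the detected Tslp probe and Il33, wild-type arrays lie between 112 and 177 and knockout arrays between 1753 and 7950, and the undetected Tslp probe stays between 89.9 and 121.

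After background correction and quantile normalisation, Tslp rose in both knockouts. The log2 level was 5.72 ± 0.23 (SD, n = 3) in wild type I and 11.52 ± 0.34 in the type I knockout, a rise of 5.80 ± 0.28 (SE; limma adjusted p = 6.19e-08) or 55.5-fold, with a 95% interval of 36.5 to 84.6. It was 5.22 ± 0.24 in wild type II and 11.49 ± 0.62 in the type II knockout, a rise of 6.27 ± 0.28 (adjusted p = 5.92e-08) or 77.2-fold, with an interval of 50.7 to 118. Over all 11163 genes tested, 12.2% rose and 15.6% fell in the type I knockout (27.8% called), and 15.6% rose and 21.8% fell in the type II knockout (37.5% called). The median change over all genes was -0.11 and -0.08. All knockout arrays lay beyond all wild-type arrays for 46.9% of genes in the type I series and 49.3% in the type II series.

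Il33 rose as well. Its log2 level went from 5.93 ± 0.18 to 12.23 ± 0.13 in the type I knockout, a rise of 6.30 ± 0.19 (adjusted p = 6.29e-10) or 78.8-fold, with an interval of 59.1 to 105. In the type II series it went from 5.87 ± 0.08 to 11.42 ± 0.44, a rise of 5.55 ± 0.19 (adjusted p = 4.87e-09) or 47.0-fold, with an interval of 35.3 to 62.7. The size of these folds depends on how the dim wild-type signal is treated, while every rise kept its call. With no background correction the type I folds were 21.1 for Tslp and 32.2 for Il33 and the type II folds 23.3 and 19.0, and the uncorrected ratios of group means were 22.8 and 35.1 (type I) and 20.3 and 16.3 (type II).

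Arrays that share a replicate number also share the number that opens their titles, and the log2 difference was taken within each such pair. In the type I series arrays 1 and 2 of both groups share title number 2705, so those pairs were set by replicate number only. For Tslp the differences were 5.38, 6.32 and 5.69 in the type I series and 5.76, 6.23 and 6.82 in the type II series. For Il33 they were 6.07, 6.51 and 6.32, and 5.14, 5.46 and 6.06. All 12 differences were above 5, so no single pair carried either rise.

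In order of level, Tslp was lowest in wild type II (5.22), then wild type I (5.72), then the type II knockout (11.49) and the type I knockout (11.52). Neighbours at each end did not differ beyond their spread: wild type II minus wild type I was -0.50 ± 0.28 (adjusted p = 0.392) and the type II knockout minus the type I knockout was -0.03 ± 0.28 (adjusted p = 0.964, 95% interval -0.63 to 0.58). Il33 was lowest in wild type II (5.87) and wild type I (5.93), which differed by -0.06 ± 0.19 (adjusted p = 0.905). It was 1.75-fold lower in the type II than in the type I knockout, a difference of -0.81 ± 0.19 (adjusted p = 0.0155, interval -1.22 to -0.39). That call ended without type I knockout array 2 (-0.80, adjusted p = 0.0550) or array 3 (-0.74, adjusted p = 0.0520). Over all genes, 1.53% differed between the wild types and 15.1% between the knockouts.

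Whether the rise itself differed between the knockouts was tested as the type II change minus the type I change. For Tslp this was 0.47 ± 0.39 (adjusted p = 0.594, 95% interval -0.38 to 1.33). For Il33 it was -0.75 ± 0.27 (adjusted p = 0.182), with an unadjusted interval of -1.33 to -0.16. The Il33 difference passed the threshold when arrays were weighted by their quality (-0.94, adjusted p = 0.0295) and without type II knockout array 3 (-0.96, adjusted p = 0.0297). Of all genes, 3.06% differed in their change.

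Few genes rose as far as this pair. A rise of at least 16-fold was found for 34 genes in the type I knockout and 29 in the type II knockout, and 18 genes were on both lists, 52.9% of the first and 62.1% of the second. These 18 included Tslp and Il33. The others were the cornified envelope genes Sprr1b, Sprr2d, Sprr2e, Sprr2f, Sprr2g and Sprr2k, the protease inhibitors Csta2, Csta3 and Slpi, the calgranulins S100a8 and S100a9, the antimicrobial peptide gene Defb14, the growth factor gene Epgn, the protease gene Klk6, the interferon-induced gene Ifi202b and 1 probe without a gene name. By size of rise Tslp was number 16 in the type I and number 9 in the type II knockout, and Il33 was number 11 and number 12.

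**Figure D2:**
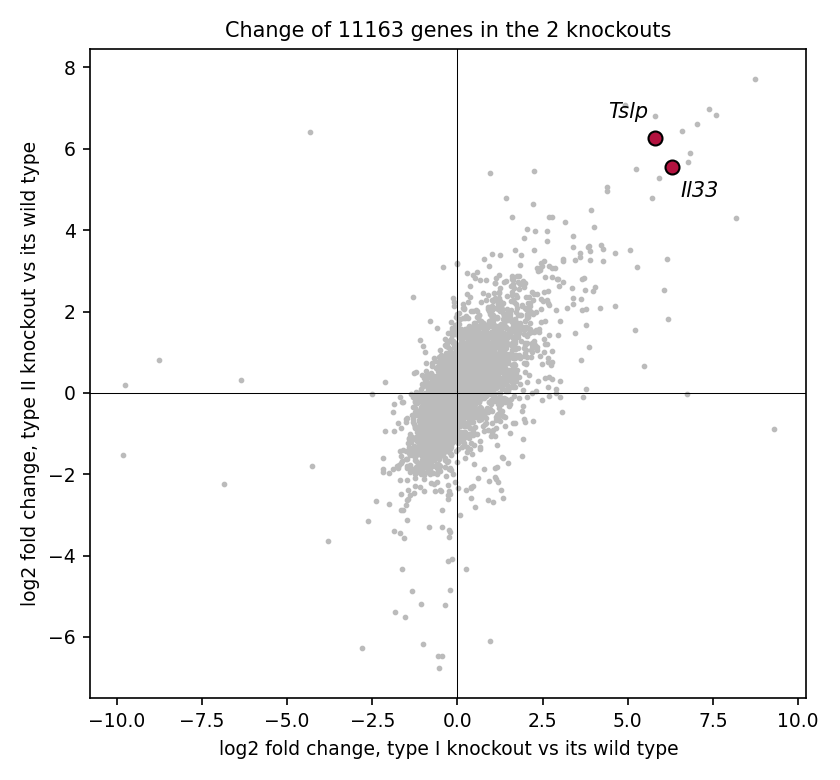
Log2 change in the type I knockout (horizontal) against log2 change in the type II knockout (vertical) for all 11163 genes tested; each point is a gene, and Tslp and Il33 are named. Both members lie at the upper right end, at 5.80 and 6.27 (Tslp) and at 6.30 and 5.55 (Il33).

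The genes whose 12 log2 values ran closest to each member, after each gene's own mean was taken off, were named by the root mean square difference. The arrays fall into 2 well-separated sets, knockout and wild type, so the correlations given here describe that separation. The gene closest to Tslp was Il33 and the gene closest to Il33 was Tslp, at 0.363 log2 units (r = 0.993 over 12 arrays). Next to Tslp came S100a9 (0.519, r = 0.989), Sprr2f (0.643), S100a8 (0.664), Csta2 (0.743) and Csta3 (0.809). Next to Il33 came S100a9 (0.549, r = 0.989), Sprr2f (0.574), Csta2 (0.617), S100a8 (0.624) and Sprr2k (0.726).

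S100a9, a calgranulin of stressed keratinocytes and of neutrophils, had raw signals of 167, 185 and 134 in wild type I and 5019, 6632 and 7846 in the type I knockout. It had 144, 168 and 146 in wild type II and 4822, 6422 and 3845 in the type II knockout, a range much like that of the members. Its log2 rise was 6.59 ± 0.21 and 6.44 ± 0.21. S100a8, its partner in calprotectin, rose by 6.82 ± 0.27 and 5.89 ± 0.27. The stefin gene Csta3 rose by 7.58 ± 0.32 and 6.83 ± 0.32, and Csta2 by 5.71 ± 0.51 and 4.80 ± 0.51, the latter detected on only 1 array of each wild type. Sprr2f, a cornified envelope precursor, was not detected on any wild-type array and was at least 83.6-fold higher in the type I and at least 66.0-fold higher in the type II knockout, and Sprr2k was at least 71.0-fold and 35.6-fold higher. These bounds hold for the background correction used. With none, Sprr2f was 27.7- and 21.0-fold and Sprr2k 23.4- and 12.01-fold higher, and the log2 rises were 5.23 and 5.22 for S100a9, 5.54 and 5.08 for S100a8, 6.31 and 5.72 for Csta3 and 3.79 and 2.97 for Csta2. Type II rises were also larger for Csta2 without type II knockout array 1 (5.48) and for Sprr2k without array 2 (6.62). These genes were found by their likeness to the members in the same arrays, so their changes are a description. Of 8 listed neutrophil markers other than the calgranulins, 3 were measured. In the type I knockout 0 rose and 1 fell, and in the type II knockout 1 rose and 1 fell. That is 33.3% and 66.7% called, against 27.8% and 37.5% of all genes. The summed normalised signal of these markers was 150 to 210 in wild type I and 118 to 140 in the type I knockout. It was 227 to 356 in wild type II and 108 to 180 in the type II knockout. The part of neutrophils in the calgranulin values was not tested. Mpo was detected on 1 of 12 arrays and Elane on 0.

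**Figure D3:**
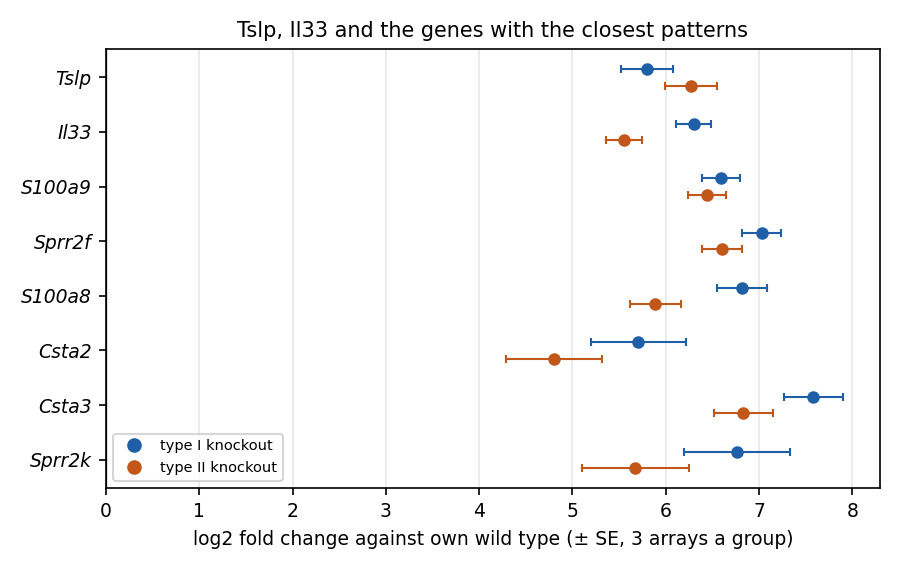
Log2 change ± SE (horizontal) of Tslp, Il33 and the genes closest to them in pattern (rows), in the type I and in the type II knockout; each point is a fit over 3 knockout and 3 wild-type arrays, and those of Sprr2f and Sprr2k, undetected in wild type, are fitted values and not bounds. Changes run from 4.80 for Csta2 to 7.58 for Csta3.

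Receptor and signalling genes changed far less than the cytokines. Of 14 listed genes 10 were measured, of which 5 rose and 0 fell in the type I knockout and 4 rose and 0 fell in the type II knockout, with median changes of 0.62 and 0.50. Calls were thus made for 50% and 40%, against 27.8% and 37.5% of all genes, so the type II share was near that of all genes. Crlf2 and Il1rl1, the chains that give each receptor its specificity, and the kinase Irak4 are not analysed here, and Sigirr, an inhibitor of IL-33 signalling, was detected on 2 arrays only. Il7r, the second chain of the TSLP receptor, changed by 0.53 ± 0.24 (adjusted p = 0.122) and -0.47 ± 0.24 (adjusted p = 0.147). Il1rap, the second chain of the IL-33 receptor, rose by 1.02 ± 0.14 (adjusted p = 0.000369) and 1.18 ± 0.14 (adjusted p = 8.99e-05). Its raw signals were 118 to 139 in wild type I against 153 to 189, and 114 to 122 in wild type II against 137 to 145, which is a rise close to background. With no background correction it was 0.35 and 0.42. Of 5 Il1rap probes, 3 were called in the type I and 4 in the type II knockout, and the uncalled ones measured 0.31 and 0.37, and 0.20.

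Of the kinases and adaptors, Jak1 rose by 0.76 ± 0.14 (adjusted p = 0.003) and 1.20 ± 0.14 (adjusted p = 8.97e-05), and Myd88 by 0.70 ± 0.13 and 0.69 ± 0.13 (adjusted p = 0.00291 and 0.00192). Jak2 rose in the type II knockout (0.86 ± 0.17, adjusted p = 0.00228) and measured 0.49 ± 0.17 in the type I knockout (adjusted p = 0.0517). Without wild type I array 1 the type I value was 0.64 (adjusted p = 0.022), and it also passed without type II knockout array 1 (0.0345) or array 2 (0.0406). It passed in 9 of 24 alternatives in all, with adjusted p of 0.0220 to 0.166 over the 24. Stat5b, a transcription factor below the TSLP receptor, rose in the type I knockout (1.34 ± 0.25, adjusted p = 0.00251) and measured -0.58 ± 0.25 in the type II knockout (adjusted p = 0.0858), where only 1 of 3 arrays detected it. Without type II knockout array 2 that second value was -0.86 (adjusted p = 0.0151), and with no background correction the Stat5b rise was 0.57, still called. The adaptor Traf6, below the IL-33 receptor, rose in the type I knockout (1.07 ± 0.19, adjusted p = 0.00203) and measured -0.19 in the type II knockout (adjusted p = 0.469). Its probes disagreed, since another Traf6 probe rose by 2.30 and 1.07 and was called in both. Stat5a, Stat3 and Irak1 were not called in either knockout on their brightest probe. Without type II knockout array 3 the type II values of Stat5a (0.38, adjusted p = 0.0447), Stat3 (1.34, adjusted p = 0.00385) and Il7r (-0.74, adjusted p = 0.0211) passed, as did Stat3 without wild type I array 3 (0.92, adjusted p = 0.0369). Of 3 Stat3 probes, 1 was called in the type I and 2 in the type II comparison.

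Of 28 listed genes known to act on Tslp in keratinocytes, 21 were measured, and 23.8% of these were called in the type I and 42.9% in the type II knockout, near the shares of all genes (27.8% and 37.5%). In the type I knockout 4 rose (Klk5, Klk14, St14 and Nfkbia) and 1 fell (Notch1), and in the type II knockout 7 rose and 2 fell (Klk5 and Nfatc1), with medians of 0.28 and 0.13. Klk5, a kallikrein protease that triggers Tslp through a protease-activated receptor, had log2 levels of 9.66, 8.73 and 9.32 in wild type I and 11.16, 10.83 and 11.42 in the type I knockout. It had 9.67, 8.58 and 9.85 in wild type II and 7.56, 8.90 and 7.02 in the type II knockout, where the groups overlapped. The change of Klk5 was a rise of 1.90 ± 0.45 in the first series (adjusted p = 0.00912) and of -1.54 ± 0.45, a fall, in the second (adjusted p = 0.0179). The part of Klk5 in the Tslp values was not tested. The type II fall of Klk5 lost its call without wild type II array 1 (0.0633) or 3 (0.0709), or without type II knockout array 1 (0.0572) or 3 (0.0641).

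Klk14, a second kallikrein, was at least 1.48-fold higher in the type I knockout (adjusted p = 0.000969; 1.35-fold, still called, with no background correction) and was not detected on any array of the type II series. St14, the membrane protease matriptase, measured 1.02 ± 0.27 in the type I comparison (adjusted p = 0.0168, a rise) and measured 0.73 in the type II knockout (adjusted p = 0.053). A second St14 probe measured 0.34 and 0.30 and was not called. The type I call of St14 ended without wild type I array 2 (0.0664) or 3 (0.0546) or type I knockout array 3 (0.0638), and the type II value passed without wild type I array 1 (0.0393) or type II knockout array 2 (0.0298). Without type I knockout array 3, the count that rose in the type I knockout was 2. The count that fell there was 0 without any wild type array of either series or without type I knockout array 1 or 2. The count that fell in the type II knockout was 1 without any wild type II array or without type II knockout array 2 or 3. Spink5, the inhibitor of these kallikreins, and F2rl1, their receptor, are not analysed here.

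Several NF-kB genes of that list rose further in the type II knockout. Tnfaip3, an NF-kB target that dampens the pathway, had log2 levels of 6.30, 6.69 and 6.51 in wild type II and 8.78, 8.99 and 9.04 in the type II knockout. It rose by 2.44 ± 0.16 there (adjusted p = 1.07e-06) and measured 0.28 in the type I knockout (adjusted p = 0.21), where levels were 6.74, 6.75 and 7.19 against 6.43 to 6.72. Nfkbia, the gene of the inhibitor IkB-alpha, rose by 0.90 ± 0.19 in the type I (adjusted p = 0.0049) and 2.10 ± 0.19 in the type II knockout (adjusted p = 1.08e-05). Nfkb2 rose by 1.30 ± 0.14 in the type II knockout (adjusted p = 3.89e-05) and measured 0.12 in the type I knockout (adjusted p = 0.57), and Relb measured 1.53 ± 0.19 (adjusted p = 0.000125) and 0.47 (adjusted p = 0.0874). The change was larger in the type II knockout by 2.16 ± 0.23 for Tnfaip3 (adjusted p = 0.000387), by 1.19 ± 0.20 for Nfkb2 (adjusted p = 0.00751) and by 1.20 ± 0.27 for Nfkbia (adjusted p = 0.0317). The Nfkbia difference was not called with median scaling (0.94, adjusted p = 0.128) or without any wild-type array, type I knockout array 1 or 2 or type II knockout array 1 (adjusted p of 0.0541 to 0.0950). With no background correction the type II rises were smaller for Tnfaip3 (1.68), Nfkb2 (0.71) and Relb (0.82) and were still called.

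Of the 15 genes known to cut or release IL-33, 9 were measured. In the type I knockout 3 rose and 0 fell, and in the type II knockout 3 rose and 4 fell, with medians of 0.004 and -0.9998. Calls were made for 33.3% and 77.8% of the measured genes, against 27.8% and 37.5% of all genes. The 3 that rose were the calpain genes Capn1 (0.70 and 0.66, adjusted p = 0.012 and 0.011) and Capn2 (0.82 and 1.47, adjusted p = 0.0198 and 0.000496) and the caspase gene Casp8 (0.67 and 0.46, adjusted p = 0.00654 and 0.0298). Without type I knockout array 2 the type I count was 1, with Capn1 at an adjusted p of 0.0534 and Capn2 at 0.0597. The type I call of Capn2 also ended without wild type I array 3 (0.0702) or type I knockout array 1 (0.0534). The type II call of Casp8 ended without any 1 of the 3 wild type II arrays (0.0564, 0.0818 and 0.0805) or without type II knockout array 3 (0.0974). With median scaling the type II count that rose was also 1.

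The 4 that fell in the second series were mast cell proteases or shared with neutrophils: Cma1, Mcpt4, Tpsb2 and Ctsg. Mcpt4, a mast cell chymase, had log2 levels of 10.64, 10.10 and 9.80 in wild type II and 6.68, 6.83 and 9.56 in the type II knockout. Cma1, another chymase, had 11.904, 11.489 and 11.998 against 8.14, 8.98 and 11.03. Arrays 1 and 2 of the type II knockout were low and array 3 was close to wild type. Mcpt4 fell by 2.48 ± 0.58 (adjusted p = 0.00598) and Cma1 changed by -2.41 ± 0.53 (adjusted p = 0.00427), and in the type I knockout they measured -0.22 and -0.48 with no call. Without type II knockout array 3 the type II changes were -3.42 for Mcpt4 and -3.23 for Cma1, and without array 1 that of Cma1 was -1.79. Ctsg, cathepsin G, was at least 1.497-fold lower in the type II knockout (adjusted p = 0.0361), a call that ended when any 1 of the 6 arrays of that series was left out (adjusted p of 0.0517 to 0.112). It measured -0.68 in the type I knockout (adjusted p = 0.153) and passed there without type I knockout array 2 (-1.17, adjusted p = 0.00534). Of the 8 mast cell markers measured, 4 fell in the type II and 0 in the type I knockout, with medians of -2.13 and -0.23. That is 50% and 0% called, against 37.5% and 27.8% of all genes. Cma1, Mcpt4, Tpsb2 and Tpsab1 are on both the marker and the protease list, and Cma1, Mcpt4 and Tpsb2 are among the marker falls. The marker values are therefore not separate from the protease values. The summed signal of the 8 markers was 19036 to 25159 in wild type II and 2770 to 16614 in the type II knockout. The part of mast cell number in the protease values was not tested. Tslp and Il33 were high on all 3 type II knockout arrays.

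**Figure D4:**
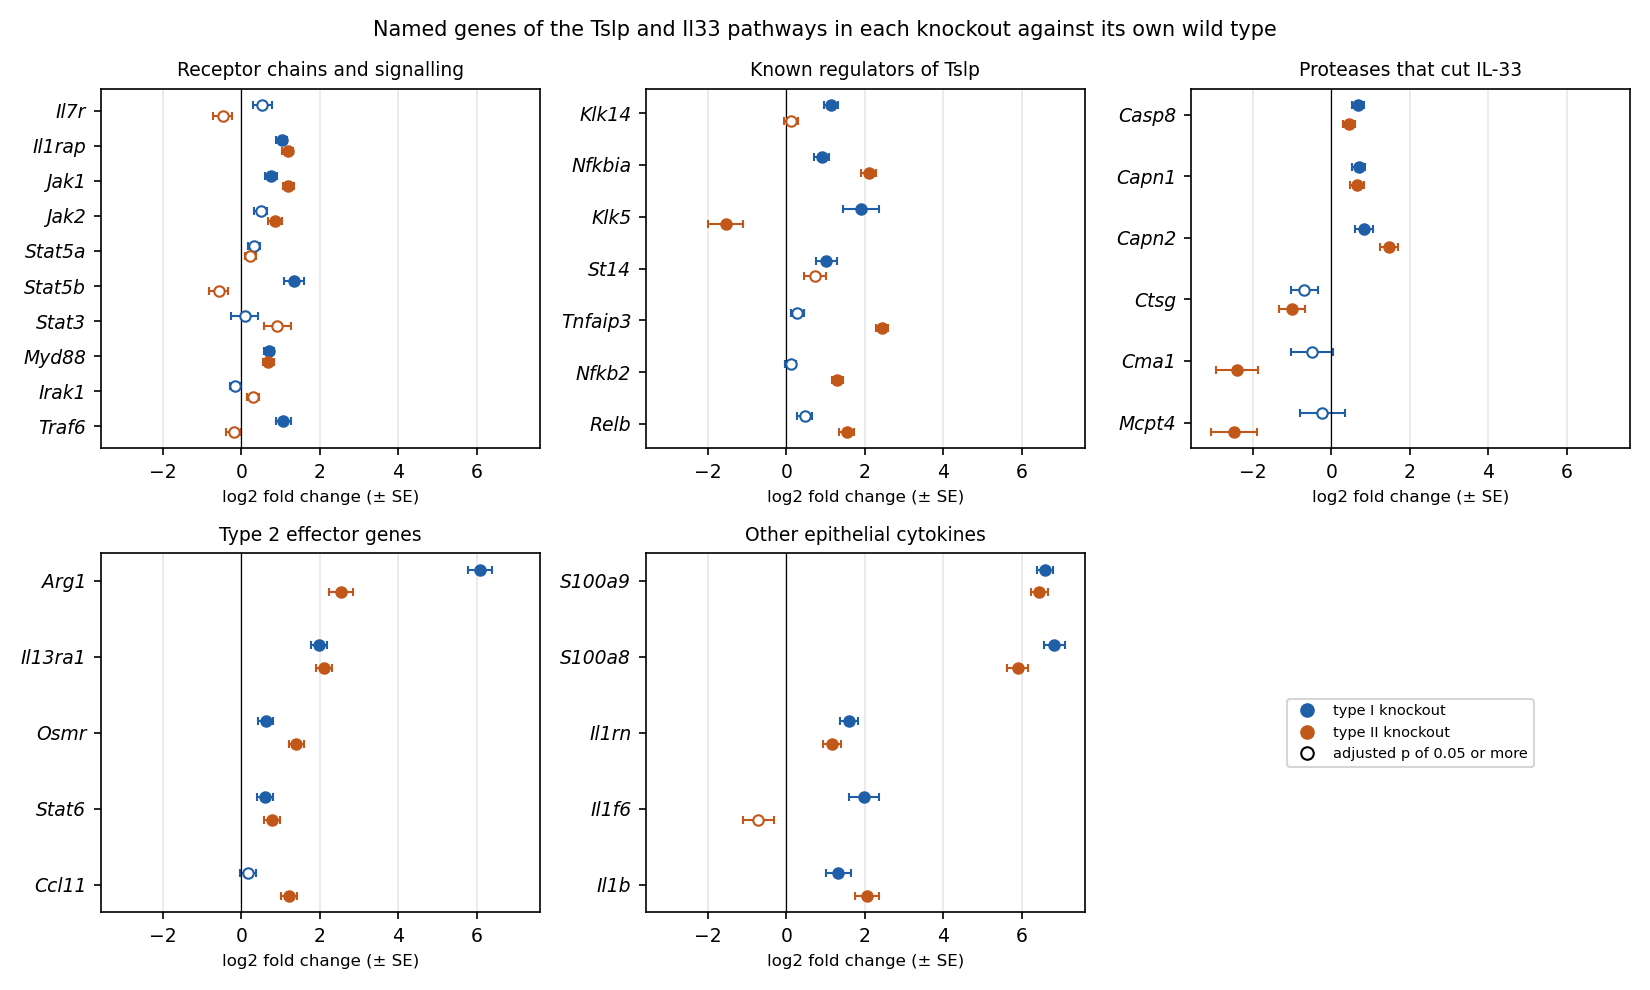
Log2 change ± SE (horizontal) of the named receptor, regulator, processing, type 2 and other epithelial cytokine genes (rows) in the type I and in the type II knockout, with open points where the adjusted p was 0.05 or more; each point is a fit over 3 knockout and 3 wild-type arrays, fitted also where a group was undetected (Klk14, Il1b and Ctsg). Klk5 lies at 1.90 and -1.54, and Arg1 at 6.07 and 2.53.

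Among genes downstream of type 2 immunity, Arg1 and Il13ra1 rose furthest, Osmr and Stat6 rose less in both knockouts, and Ccl11 rose in the type II knockout. Of 26 listed, 12 were measured. In the type I knockout 4 rose and 0 fell, and in the type II knockout 5 rose and 1 fell, with medians of 0.24 and 0.19. Calls were made for 33.3% and 50% of the measured genes, against 27.8% and 37.5% of all genes. The cytokine genes Il5 and Csf2, the chemokine genes Ccl17, Ccl22 and Ccl26, and the type 2 markers Retnla and Chil3 were detected on 0 of 12 arrays, and Il9 on 1. At this sensitivity a change in them was not detectable. Il4, the founding type 2 cytokine, fell by 0.71 ± 0.22 in the type II knockout (adjusted p = 0.0261), near background and detected on 1 knockout array. That count of falls was 0 without wild type II array 1 or 2 or type II knockout array 1 or 2. Il13, detected on at most 2 arrays of a group, measured -0.10 ± 0.12 (adjusted p = 0.575) in the type I and 0.01 ± 0.12 (adjusted p = 0.960) in the type II knockout. Postn measured -0.22 ± 0.17 (adjusted p = 0.350) and -0.37 ± 0.17 (adjusted p = 0.101). Il4ra, Il31 and Areg are not analysed here.

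Arg1, the arginase gene that type 2 cytokines induce in macrophages, had raw signals of 145, 114 and 135 in wild type I and 2381, 3288 and 2351 in the type I knockout. It had 115, 116 and 119 in wild type II and 303, 207 and 179 in the type II knockout, so the groups did not overlap in either series. It rose by 6.07 ± 0.31 (adjusted p = 8.81e-08) and 2.53 ± 0.31 (adjusted p = 9.06e-05), and its change was smaller in the type II knockout by a difference of -3.54 ± 0.43 (adjusted p = 0.00114). With no background correction the rises of Arg1 were 4.29 and 1.17, both called. The 7 macrophage markers measured gave 0 that rose and 0 that fell in the type I knockout and 0 that rose and 3 that fell in the type II knockout. Calls were thus made for 0% and 42.9%, against 27.8% and 37.5% of all genes. Summed signals were 4476 to 5673 in wild type I and 4366 to 5933 in the type I knockout. They were 5156 to 5325 in wild type II and 2871 to 5538 in the type II knockout. Which cells carried the Arg1 rise was not tested.

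Il13ra1, a receptor chain for IL-13 that keratinocytes carry, rose by 1.97 ± 0.21 (adjusted p = 4.42e-05) and 2.10 ± 0.21 (adjusted p = 2.35e-05). Osmr, the oncostatin M receptor that also serves IL-31, rose by 0.62 ± 0.20 (adjusted p = 0.0359) and 1.40 ± 0.20 (adjusted p = 0.000264), and Stat6, the factor below the IL-4 and IL-13 receptors, by 0.61 ± 0.20 (adjusted p = 0.0407) and 0.78 ± 0.20 (adjusted p = 0.0096). The type I calls of Osmr and Stat6 were weak. Stat6 lost its call without any wild type I array, any type I knockout array or without wild type II array 3 (adjusted p of 0.0544 to 0.115). Osmr lost it without wild type I array 2 or 3, any type I knockout array or wild type II array 3 (adjusted p of 0.0503 to 0.12), and the count that rose was then 2. Ccl11, the eotaxin that draws eosinophils, rose in the type II knockout (1.20 ± 0.20, adjusted p = 0.000756) and measured 0.18 in the type I knockout (adjusted p = 0.546). The 3 basophil and eosinophil markers measured had 0 calls in either knockout, against 27.8% and 37.5% of all genes. Of these 3, 1 was detected on all wild type II arrays and 0 on all type II knockout arrays, so a change could have been missed. Prg2, Epx and Siglecf were detected on 0 arrays.

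Among other cytokines and alarmins that epithelia make, S100a8 and S100a9 rose about as far as Tslp and Il33, and the rest rose less, fell or were not called. Of 22 listed, 11 were measured, of which 6 rose and 0 fell in the type I knockout and 6 rose and 1 fell (Il17rb, part of the IL-25 receptor, by -0.55, adjusted p = 0.0200) in the type II knockout, with medians of 1.63 and 1.16. The shares called were 54.5% and 63.6%, against 27.8% and 37.5% of all genes. S100a8 and S100a9, described above, are among those that rose, and rose further than the other genes of that list. After these 2, Il24 had the largest change. It was not detected in wild type II and was at least 12.6-fold higher in the type II knockout (adjusted p = 0.00754). In the type I knockout Il24 measured 2.63 ± 0.92 (adjusted p = 0.0506). Its knockout arrays were widely spread, with an SD of 1.92 in each knockout. The fall of Il17rb was not called without wild type II array 2 or 3 or type II knockout array 3. Il1b, a pro-inflammatory IL-1 cytokine, was not detected in wild type I and was at least 2.09-fold higher in the type I knockout (adjusted p = 0.00968), and it rose by 2.05 ± 0.32 in the type II knockout (adjusted p = 0.000475). With no background correction the change of Il1b was 0.47 (adjusted p = 0.0704) in the type I and 0.88 in the type II knockout. Il1rn, the IL-1 receptor antagonist, rose by 1.59 ± 0.23 and 1.16 ± 0.23, the latter at an adjusted p of 0.0021. Il1f6, now named IL-36 alpha, rose in the type I knockout (1.98 ± 0.39, adjusted p = 0.00348) and measured -0.71 ± 0.39 in the type II knockout (adjusted p = 0.174). Its rise was 1.10, still called, with no background correction. Il25, the third epithelial cytokine of type 2 immunity, was detected on 0 arrays.

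Markers of cells that can make the members were set beside them. Of 8 keratinocyte markers measured, 4 rose in the type I and 6 in the type II knockout and 0 fell, with medians of 0.71 and 1.20. Their summed signal was 6864 to 8854 in wild type I against 13184 to 14074, and 8836 to 9523 in wild type II against 20079 to 22458, with all 8 detected on every array. Of 8 endothelial markers, 0 rose in either knockout, and 1 fell in the type I and 0 in the type II knockout, with sums of 5345 to 5901 against 3854 to 4933 and of 5018 to 6101 against 4593 to 6224. Of 9 fibroblast markers, 7 fell in the type I and 5 in the type II knockout. Adipocyte markers fell in 5 and 4 of 5, and muscle markers in 4 and 6 of 7. Among the cells on which these cytokines act, 5 lymphoid markers gave 0 that rose and 1 that fell in the type I and 0 and 2 in the type II knockout, with sums of 3877 to 4224 against 2704 to 2811 and of 2275 to 3327 against 1949 to 2367. The 5 were Ptprc, Cd3g, Thy1, Icos and Rora, of which 2 or 3 were detected on all arrays of a group. Cd3d and Cd3e were detected on 1 array each, and Cd2 and Il2ra on 0. How far these sums reflect lymphoid cells was not tested. The 3 dendritic cell markers measured were the antigen presentation genes Cd74, H2-Aa and H2-Ab1. They gave 0 calls in the type I knockout and 1 rise in the type II knockout. Their sums were 446 to 503 against 599 to 707 and 295 to 809 against 713 to 1061. How far these sums reflect dendritic cells was not tested. The Langerhans cell marker Cd207 and the dendritic cell markers Itgax and Flt3 were detected on 0 arrays, and Batf3 on 1. Of all genes, 27.8% were called in the type I and 37.5% in the type II knockout. The lymphoid shares of 20% and 40% lay near these, as did the type II dendritic share of 33.3%. The part of cell composition in the Tslp and Il33 values was not tested.

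Of the genes next to each member on the chromosome, 1 rose, in 1 knockout. Over all genes, 12.2% rose in the type I and 15.6% in the type II knockout, and 27.8% and 37.5% were called. The neighbours are too few to set against these shares, so their calls are a description. Of the 3 measured coding genes on either side of Tslp (Iws1, Ercc3, Bin1, Stard4, Nrep and Epb41l4a), Bin1 fell by 0.99 and 1.19 (adjusted p = 0.0364 and 0.0116) and Nrep by 0.69 and 1.31 (adjusted p = 0.00622 and 6.92e-05), and no call was made for the other 4. Around Il33 (Ermp1, Mlana, Ranbp6, Uhrf2, Gldc and Dkk1), Ermp1 rose in the type I knockout by 0.59 (adjusted p = 0.0128) and measured 0.05 in the type II knockout. Uhrf2 measured -0.38 (adjusted p = 0.0413, a fall) and 0.00, Gldc changed by -0.73 and -1.42 (adjusted p = 0.0462 and 0.000999), and Dkk1 fell by 0.71 in the type II knockout (adjusted p = 0.00286). These neighbours were picked by position alone, after the members' values were known.

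**Figure D5:**
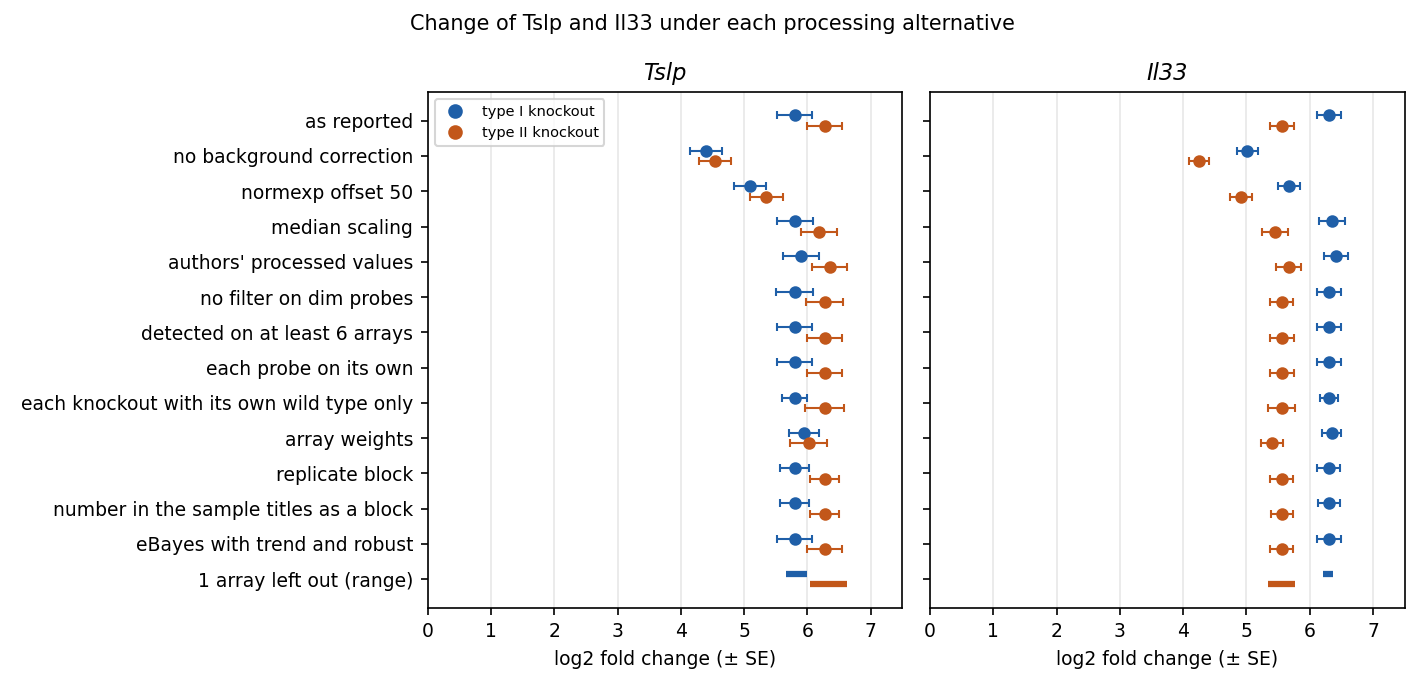
Log2 change ± SE (horizontal) of Tslp and Il33 in each knockout as reported and under 12 other settings (points), with thick bars for the range over the 12 fits that leave out 1 array each. Tslp lies between 4.40 and 5.99 in the type I and between 4.54 and 6.62 in the type II knockout, and Il33 between 5.01 and 6.42 and between 4.25 and 5.77.

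Across the 24 alternatives drawn there, the rises of Tslp and Il33 were called in both knockouts each time. The lowest values came from leaving out the background correction.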

How the data were processed

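Total RNA of 12 back skin samples was hybridised to Illumina arrays, per the labels' protocols. The authors deposited average bead signals, which per the file headers are non-normalised intensity values, and a detection p-value for each probe. Neither the scanner's software nor how detection was scored is given in the sources used here. A processed intensity table deposited by the authors (linear, with 25.2% to 25.3% of values below 0) served only as an alternative.

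Signals were corrected by normexp (offset 16), quantile normalised and log2 transformed with limma 3.58.1 in R 4.3.3. Probes detected (p under 0.05) on at least 3 arrays entered (14744 of 25697). Each gene took its brightest probe by mean, giving 11163 features. Symbols came from the platform annotation (23978 probes with 1 symbol, 1719 with none). A model with 4 group terms and 8 residual degrees of freedom was fitted with lmFit and eBayes over all features with Benjamini-Hochberg adjustment. Genes under an adjusted p of 0.05 are called. Values are log2 changes ± SE. Where a gene was undetected on all arrays of a group, "at least N-fold" is the brighter group's mean over the dimmer group's, with each dim array raised to its lowest detected probe where below it.

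The members, gene lists and naming rule were chosen with earlier results of these data known. Named were the members, all measured receptor genes, up to 4 genes of smallest p per list and comparison, and the 6 genes nearest each member. Il4, Il13, Il17rb, Il18, Il24, Notch1, Nfatc1, Postn, Rela, Tpsb2, marker genes singled out and chromosome neighbours were added after their values were seen. The fit was tested on simulated data. Deviations of arrays with the same replicate number correlated at 0.168, 0.0587 and 0.359 (type I) and 0.082, 0.028 and 0.141 (type II). Other type I pairs sharing title number 2705 gave 0.165 and 0.194, and type I pairs of different title numbers gave -0.282 to -0.173. In the type II series pairs of different numbers gave -0.156 to 0.0738. The type I arrays thus deviated by title number. The main fit took no account of the numbers, and blocks on them were run as alternatives. Sequences are from RefSeq (GRCm38.p6).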

Additional observations from a re-analysis of the deposited data

Results flagged for a closer look

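Over all genes, 3.06% differed in their change between the knockouts. Many named genes were picked by smallest p in a knockout comparison, so their number is not set against that share. Each value below is the type II change minus the type I change, and the keratin genes were left out. By the interaction term of the limma model, the change differed between the knockouts for 8 of the genes named around Tslp and Il33. It was smaller in the type II knockout for the protease gene Klk5 (-3.44 ± 0.63, adjusted p = 0.0134), for Arg1 (-3.54 ± 0.43, adjusted p = 0.00114), for Il1f6 (-2.69 ± 0.55, adjusted p = 0.0223), for Stat5b (-1.92 ± 0.35, adjusted p = 0.0132) and for Traf6 (-1.26 ± 0.27, adjusted p = 0.0276). It was larger in the type II knockout for the NF-kB genes Tnfaip3 (2.16 ± 0.23, adjusted p = 0.000387), Nfkb2 (1.19 ± 0.20, adjusted p = 0.00751) and Nfkbia (1.20 ± 0.27, adjusted p = 0.0317). Rela (0.72 ± 0.15, adjusted p = 0.0271) and Il18 (-2.38 ± 0.57, adjusted p = 0.0446), listed but outside the naming rule, also differed. For Klk5 all type I knockout arrays lay above their wild type, and the type II knockout groups overlapped. Stat5b and Il1f6 were dim in the type II knockout, each detected on 1 of 3 arrays. The differences of Klk5, Arg1, Stat5b, Tnfaip3 and Nfkb2 were called in all 23 alternatives that gave them. That of Nfkbia lost its call in 11 of 23 (adjusted p of 0.0541 to 0.128), that of Traf6 in 7 (0.0514 to 0.0859) and that of Il1f6 in 5 (0.0521 to 0.0661). For Traf6 these were no filter on dim probes and leaving out wild type I array 2 or 3, type I knockout array 1 or 3, or wild type II array 1 or 3. For Il1f6 they were no filter on dim probes and leaving out type I knockout array 1, wild type II array 1 or 3, or type II knockout array 1. For Nfkbia they were median scaling, no filter on dim probes and leaving out any wild-type array, type I knockout array 1 or 2, or type II knockout array 1. Groups of 3 arrays were too small for a check of single arrays that stand apart.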

How the results depend on the processing

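Of the 24 alternatives run, 12 left out an array each and 12 changed a setting. A slide block was not run, since the files name no slides. The rises of Tslp (21.1- to 63.5-fold and 23.3- to 98.4-fold) and Il33 (32.2- to 85.5-fold and 19.0- to 54.5-fold) kept their call in each. With 1 array left out, the Il33 difference of changes ran from -0.96 to -0.53, and it was -0.94 with array weights. The Il33 type II minus type I knockout difference ran from -1.02 to -0.59, and with 1 array left out that of Tslp ran from -0.26 to 0.33 (-0.35 with array weights), never called. Changes in the type I knockout ran from -0.10 to 0.40 for Stat3 and from -1.07 to 0.11 for Krt1, with no call where the sign turned. The count of genes whose change differed between the knockouts (342) was 825 with array weights, 539 with the title number as a block and 168 to 644 with 1 array left out. With the replicate block, that count was 324, and 3171 and 4309 genes were called in the type I and type II comparisons. The block left the Tslp (5.80 and 6.27) and Il33 (6.30 and 5.55) changes as they were, at adjusted p of 5.19e-07 to 3.56e-06. It ended the calls of Stat6 and Notch1 (type I) and of Casp8 and Il4 (type II), with adjusted p of 0.0550 for Stat6 and 0.0554 for Casp8, and made one of Stat3 (type II, adjusted p = 0.0116). With the title number as a block, 3665 and 4716 genes were called, against 3105 and 4183 in the main fit. That block made calls of Jak2 (type I, adjusted p = 0.0471) and Stat3 (type II, adjusted p = 0.00593). The cause of these shifts was not tested. Wild-type signals near background limit the precision of every fold.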
